A study of Homo sapiens with 12 samples.

Results

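The 5 genes of apoptosis control followed here were BCL2A1, MCL1, PMAIP1, BMF and BCL2L11, out of 14580 genes with a named probe set on the arrays. They were chosen by name, with earlier results of these data known. Each of the 5 had 1 probe set in the deposited values, so no choice between probe sets had to be made. The arrays came from A2058, an established human melanoma line that carries mutant BRAF. Cells were harvested after 24 h in 4 groups of 3 arrays: DTE, which received dabrafenib (100 nM), trametinib (10 nM) and entinostat (1 µM); DT, which received dabrafenib and trametinib at the same doses; E, which received entinostat alone; and DMSO, the solvent control. Dabrafenib inhibits RAF kinases and trametinib inhibits MEK, so DT blocks the MAPK pathway at consecutive steps, while entinostat inhibits class I histone deacetylases. One line, 1 dose of each drug and 1 time were sampled. The titles call the arrays biological replicates and the series design calls them technical, so the p-values here reflect array-to-array spread, which may be technical.

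The BCL2 family decides at the mitochondrial outer membrane whether a cell starts apoptosis. Survival proteins such as BCL-2, MCL-1 and BFL-1 (the product of BCL2A1) hold the pore-forming effectors BAX and BAK in check. The BH3-only proteins, among them NOXA (from PMAIP1), BMF and BIM (from BCL2L11), bind the survival proteins and release the effectors. NOXA binds chiefly MCL-1 and BFL-1, whereas BIM binds all the survival proteins. In melanoma BCL2A1 is known as a target of the lineage factor MITF, and active ERK is known to keep BIM low.

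Levels are log2 intensities, given as the mean and SD over 3 arrays, and a difference of 1 on this scale is a factor of 2. Genes were called changed at an adjusted p under 0.05 in limma (Benjamini-Hochberg over all 14580 genes). The array medians were 4.61 to 4.69 in DTE, 4.40 to 4.60 in DT, 4.87 to 4.90 in E and 4.58 to 4.80 in DMSO, so the members' called differences are also given after quantile normalization, which makes the arrays' distributions equal. The median difference over all genes was -0.17 for DT against DMSO and -0.19 for DTE against E as deposited, and 0.00 for both after quantile normalization. In bulk RNA, fewer cells with a transcript and less transcript per cell cannot be told apart. All 8 measured melanocyte lineage markers lay above the lower quartile of genes in each group. Their summed intensity was 1805 to 1936 in DTE, 2796 to 3245 in DT, 1523 to 1685 in E and 1690 to 1756 in DMSO. In DT against DMSO 4 were called higher and 0 lower, where 3.23% and 24.1% of all genes were. In DTE against DT 0 were called higher and 6 lower, where the shares were 13.8% and 5.09%. Of the other cell types, CD14, the 1 measured blood marker, lay below that quartile in all 4 groups. The 3 measured fibroblast markers had a summed intensity of 439 to 600 in DTE, 185 to 246 in DT, 301 to 359 in E and 166 to 193 in DMSO, with DCN below the quartile throughout. LUM made up most of that sum (log2 level 8.83 in DTE, 7.49 in DT, 8.13 in E and 7.20 in DMSO). All 3 were called higher in E than in DMSO (LUM 0.93, THY1 0.69, DCN 0.45), as were 1825 of the 14580 genes. They were also called higher in DTE than in DT (1.34, 0.53 and 0.67), as were 2014 of the 14580. Against DMSO, LUM (1.63) and DCN (0.67) were called higher in DTE, while THY1 stood at 5.12 against 5.02 without being called. Against E, LUM was called higher in DTE (0.70) and THY1 lower (-0.60). Of the 3 measured epithelial markers, 2 lay above the quartile in DTE, DT and E and 1 in DMSO. Their summed intensity was 31.9 to 39.6 in DTE, 29.3 to 30.9 in DT, 32.8 to 41.4 in E and 25.7 to 34.3 in DMSO, and EPCAM was called higher in DTE than in DMSO (0.49), in DTE than in DT (0.48) and in E than in DMSO (0.73). The part of these markers in the results below was not tested.

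**Figure D1:**
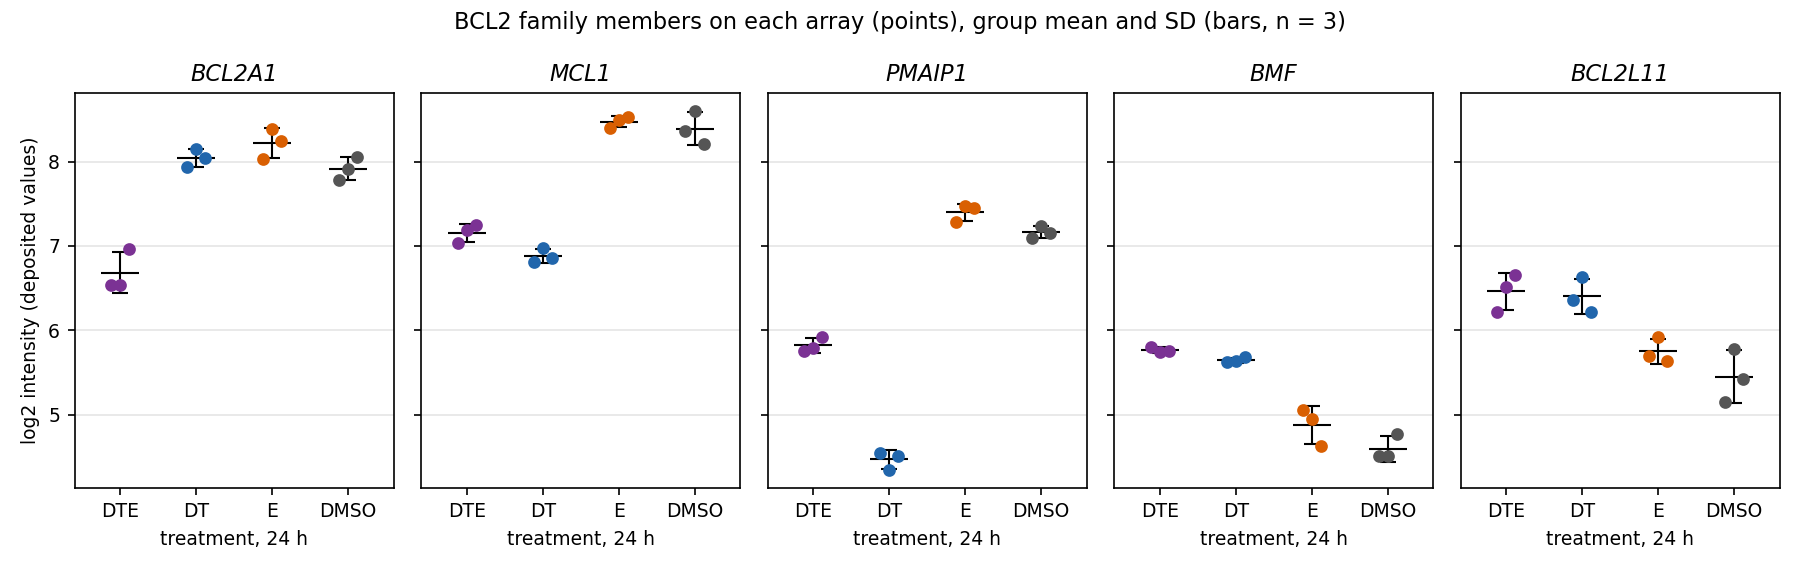
Log2 intensity of BCL2A1, MCL1, PMAIP1, BMF and BCL2L11 on each of the 12 arrays, by treatment (DTE, DT, E, DMSO). Points are arrays, and bars give the mean and SD of 3 arrays. BCL2A1 was low in DTE alone, MCL1 and PMAIP1 were low in DTE and DT, and BMF and BCL2L11 were high in DTE and DT.

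The survival gene BCL2A1 was lowered by the 3 drugs together and called by neither DT nor E as deposited. Its log2 intensity was 6.54, 6.54 and 6.96 in DTE, 7.94, 8.15 and 8.05 in DT, 8.03, 8.39 and 8.24 in E, and 7.78, 7.91 and 8.06 in DMSO. Every DTE array lay below the 9 others, and the gap to the nearest DMSO array was 0.81. The E and DT arrays overlapped, as did the DT and DMSO arrays. BCL2A1 was 2.35-fold lower in DTE than in DMSO (log2 difference -1.24, SE 0.14, adjusted p = 3.14e-06). It was 2.57-fold lower in DTE than in DT (-1.36, adjusted p = 1.55e-06) and 2.91-fold lower in DTE than in E (-1.54, adjusted p = 4.09e-07). The fall against DT ranked 10 from the lowest among the 14580 genes. After quantile normalization the 3 differences were -0.96, -1.46 and -1.26, all called.

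With 1 drug class at a time, neither difference of BCL2A1 was called as deposited. It was 0.13 in DT against DMSO (95% interval -0.17 to 0.42, adjusted p = 0.564) and 0.30 in E against DMSO (0.01 to 0.60, adjusted p = 0.168). After quantile normalization the DT difference was 0.50 and passed the threshold (adjusted p = 0.0104). Adding the separate effects on the log2 scale would place DTE at 8.35, against a measured mean of 6.68. This departure from additivity, the entinostat difference on DT minus that on DMSO, was -1.67 (SE 0.20, adjusted p = 0.000489), ranking 2 from the lowest among all genes. After quantile normalization it was -1.76 (adjusted p = 0.000223).

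MITF, a transcription factor of the melanocyte lineage, and NFKB1, a subunit of NF-κB, are both known to act on BCL2A1 and belong to a list of regulators described further on. MITF stood at 7.02 ± 0.23 in DTE, 7.73 ± 0.19 in DT, 5.70 ± 0.05 in E and 6.38 ± 0.26 in DMSO (SD, n = 3 each). It was higher in DTE than in DMSO (0.65, adjusted p = 0.00275) and lower in DTE than in DT (-0.71, adjusted p = 0.00214). NFKB1 stood at 7.30 ± 0.15 in DTE, 7.41 ± 0.12 in DT, 8.11 ± 0.10 in E and 8.31 ± 0.13 in DMSO. It was lower in DTE than in DMSO (-1.01, adjusted p = 6.83e-06) and was not called between DTE and DT (-0.11, adjusted p = 0.612). After quantile normalization the MITF differences were 0.88 and -0.81 and the NFKB1 difference from DMSO was -0.73, all called. The departure from additivity was not called for either gene (MITF -0.03, NFKB1 0.09). Whether either factor takes part in the fall of BCL2A1 was not tested.

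The promoters of 3 members are shown because each holds a motif of a factor class that is known to act on that gene. The sequences are those of RefSeq on GRCh38.p14, 250 bases before the transcription start, 5′ to 3′ on the gene's strand, and capitals mark the motif. The BCL2A1 window is chr15:79971197-79971446 on the minus strand, with the E-box TCATGTG that MITF can bind, 26 to 20 bases before the start. The PMAIP1 window is chr18:59899746-59899995 on the plus strand, with ACGTCA, the reverse complement of the cyclic AMP response element half-site TGACGT that ATF and CREB proteins can bind, 56 to 51 bases before the start. The BCL2L11 window is chr2:111120664-111120913 on the plus strand, with the FOXO motif GTAAACA 223 to 217 bases before the start.
BCL2A1: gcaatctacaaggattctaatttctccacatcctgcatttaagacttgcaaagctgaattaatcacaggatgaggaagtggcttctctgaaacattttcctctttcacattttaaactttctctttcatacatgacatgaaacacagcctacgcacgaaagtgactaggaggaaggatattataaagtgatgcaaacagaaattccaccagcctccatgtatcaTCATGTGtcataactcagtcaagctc
PMAIP1: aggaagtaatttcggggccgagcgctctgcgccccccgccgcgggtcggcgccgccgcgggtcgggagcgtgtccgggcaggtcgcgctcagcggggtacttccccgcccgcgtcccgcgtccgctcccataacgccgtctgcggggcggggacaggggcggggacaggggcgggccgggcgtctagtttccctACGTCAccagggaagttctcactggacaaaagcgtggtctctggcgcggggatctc
BCL2L11: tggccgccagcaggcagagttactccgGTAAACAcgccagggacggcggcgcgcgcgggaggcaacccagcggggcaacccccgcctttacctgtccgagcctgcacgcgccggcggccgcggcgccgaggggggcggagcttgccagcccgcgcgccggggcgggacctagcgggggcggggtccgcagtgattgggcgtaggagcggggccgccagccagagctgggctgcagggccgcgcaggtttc
Both strands were searched in windows of the same length for these 3 motifs and for the AP-1 motif TGANTCA, which matched in none of the member windows. Of 35116 promoter windows, 2.52% held TCATGTG, 7.1% TGACGT, 2.98% GTAAACA and 6.57% TGANTCA. The 2 BMF windows held none of the 4 motifs. A match describes the letters only and does not show binding. MCL1 is named here without a window.

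The survival gene MCL1, whose protein turns over fast and is needed for the survival of many melanoma cells, fell wherever the MAPK pathway was inhibited. Its log2 intensity was 7.04, 7.19 and 7.25 in DTE, 6.81, 6.97 and 6.86 in DT, 8.40, 8.49 and 8.52 in E, and 8.37, 8.59 and 8.20 in DMSO. All 6 arrays with dabrafenib and trametinib lay below all 6 without, and the E arrays overlapped the DMSO arrays. MCL1 was 2.84-fold lower in DT than in DMSO (-1.51, SE 0.12, adjusted p = 5.68e-08). With entinostat present as well it was 2.35-fold lower in DTE than in DMSO (-1.23, adjusted p = 7.17e-07) and 2.49-fold lower in DTE than in E (-1.31, adjusted p = 5.35e-07). The DTE arrays lay above the DT arrays by a gap of 0.06, but the difference of 0.28 was not called (95% interval 0.02 to 0.53, adjusted p = 0.136). After quantile normalization the DTE and DT differences from DMSO were -0.95 and -1.13 and the DTE difference from E was -1.03, all called.

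PMAIP1, which encodes the BH3-only protein NOXA, showed the largest difference of the 5 members, a fall in DT that was smaller when entinostat was present. Its log2 intensity was 5.75, 5.79 and 5.92 in DTE, 4.55, 4.35 and 4.51 in DT, 7.28, 7.47 and 7.44 in E, and 7.10, 7.24 and 7.15 in DMSO. No 2 of the 4 groups overlapped, and the order from low to high was DT, DTE, DMSO and E. PMAIP1 was 6.46-fold lower in DT than in DMSO (-2.69, SE 0.11, adjusted p = 9.66e-12), a fall that ranked 25 from the lowest among all genes. In DTE it was 2.53-fold lower than in DMSO (-1.34, adjusted p = 1e-07) and 2.98-fold lower than in E (-1.58, adjusted p = 2.4e-08). In DTE it was also 2.55-fold higher than in DT (1.35, adjusted p = 1.63e-07). The E and DMSO arrays, the closest pair, were separated by a gap of 0.04, and their difference of 0.24 was not called (adjusted p = 0.195). After quantile normalization PMAIP1 differed by -2.35 in DT against DMSO, -1.11 in DTE against DMSO, -1.30 in DTE against E and 1.24 in DTE against DT, all called.

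The entinostat difference in PMAIP1 was larger on DT than on DMSO. The sum of the separate effects was 4.71, against a measured DTE mean of 5.82, and the departure from additivity was 1.11 (SE 0.16, adjusted p = 0.00183), ranking 26 from the highest. After quantile normalization it was 1.05 (adjusted p = 0.00254). For BCL2A1 and PMAIP1, the members with a called departure, the signs were opposite, with BCL2A1 below the sum and PMAIP1 above it. The departure was not called for the survival gene MCL1 (0.19) or the BH3-only genes BMF (-0.16) and BCL2L11 (-0.24). The departure was called for 2 of the 5 members, 1 higher and 1 lower, beside 1.04% of all genes, 0.562% higher and 0.473% lower.

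**Figure D2:**
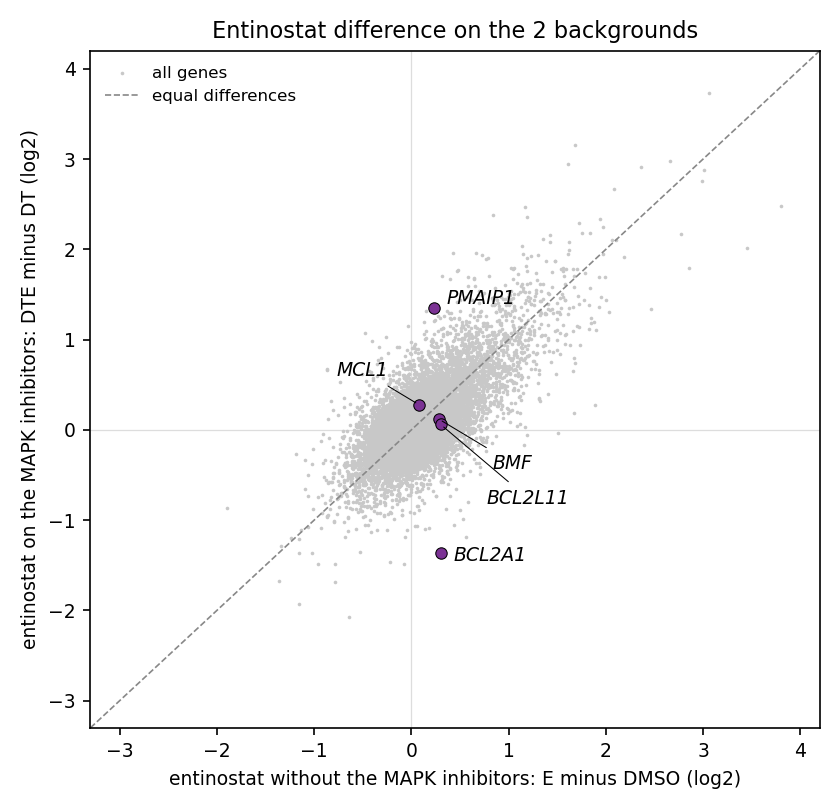
Difference made by entinostat alone (x axis, E minus DMSO, log2) and on top of dabrafenib and trametinib (y axis, DTE minus DT, log2) for 14580 genes (grey) and the 5 members (purple). BCL2A1 lies at 0.30 and -1.36 and PMAIP1 at 0.24 and 1.35, away from the dashed line of equal differences, while MCL1, BMF and BCL2L11 lie within the cloud.

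BMF, whose BH3-only protein is tied to the cytoskeleton until stress releases it, rose with MAPK inhibition. Its log2 intensity was 5.80, 5.74 and 5.76 in DTE, 5.62, 5.64 and 5.68 in DT, 5.05, 4.95 and 4.63 in E, and 4.51, 4.51 and 4.78 in DMSO. The 6 arrays with dabrafenib and trametinib lay above the 6 without, and E overlapped DMSO. BMF was 2.07-fold higher in DT than in DMSO (1.05, SE 0.13, adjusted p = 7.72e-06). It was 2.25-fold higher in DTE than in DMSO (1.17, adjusted p = 1.87e-06) and 1.85-fold higher in DTE than in E (0.89, adjusted p = 7.41e-05). Between DTE and DT the difference was 0.12, with an interval of -0.15 to 0.39 (adjusted p = 0.59).

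BCL2L11 encodes BIM, the BH3-only protein that can also activate BAX directly, and it followed BMF with a wider spread. Its log2 intensity was 6.22, 6.51 and 6.66 in DTE, 6.36, 6.63 and 6.22 in DT, 5.70, 5.92 and 5.64 in E, and 5.15, 5.78 and 5.42 in DMSO. The DTE and DT arrays overlapped each other and lay above the E and DMSO arrays, which also overlapped. BCL2L11 was 1.93-fold higher in DT than in DMSO (0.95, SE 0.16, adjusted p = 0.000308). It was 2.01-fold higher in DTE than in DMSO (1.01, adjusted p = 0.000121) and 1.64-fold higher in DTE than in E (0.71, adjusted p = 0.00467). The DTE difference from DT was 0.06, with an interval of -0.28 to 0.40 (adjusted p = 0.86). After quantile normalization the DT differences from DMSO were 1.24 for BCL2L11 and 1.26 for BMF, and both DTE differences from DMSO stayed called (1.18 and 1.26), as did the DTE differences from E (1.03 and 1.19).

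**Figure D3:**
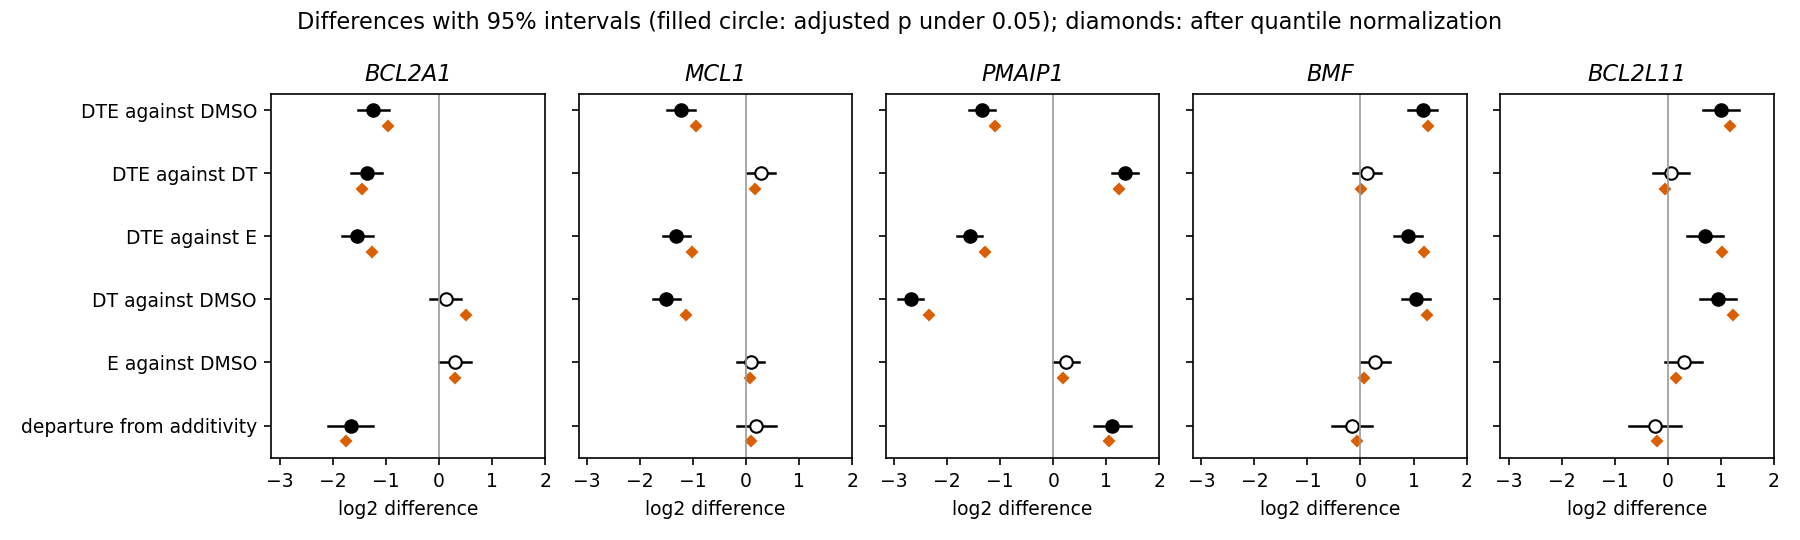
Log2 differences of the 5 members in 5 comparisons and for the departure from additivity (x axis), with 95% intervals from limma. Circles are the deposited values, filled where the adjusted p was under 0.05, and diamonds the values after quantile normalization. PMAIP1 in DT against DMSO is the lowest point at -2.69, and all 5 members have filled circles in DTE against DMSO and in DTE against E.

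DT against DMSO called 4 of the 5 members, 2 higher and 2 lower, where 27.3% of all genes were called, 3.23% higher and 24.1% lower. DTE against DMSO called all 5, 2 higher and 3 lower, beside 32.2% of all genes, 9.64% higher and 22.5% lower. DTE against E also called all 5, in the same directions, beside 24.5% (2.08% higher and 22.4% lower). DTE against DT called 2, BCL2A1 lower and PMAIP1 higher, beside 18.9% (13.8% higher and 5.09% lower). In E against DMSO 0 of 5 were called by limma, beside 16.1% of all genes, and 2 members, BCL2A1 and BMF, had an unadjusted p under 0.05. With an offset of 16 added before the log, 1 member was called there, PMAIP1 (0.21, adjusted p = 0.0341). The E differences from DMSO lay between 0.08 and 0.30 for the 5 members as deposited, so intervals reached 0.64 at most (BCL2L11). DT, E and DTE were each set against the same 3 DMSO arrays, so these counts are not independent of each other. The members were chosen with results of these data known, and a count over 5 chosen genes carries no test of its own.

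Of 23 genes listed for the BCL2 family, 21 were measured, including the 5 members. In DT against DMSO 24.1% of all genes were called lower and 3.23% higher. Among the 16 other family genes, 5 fell and 0 rose in that comparison (median -0.16, against -0.17 over all genes). BCL2, the founding survival gene, showed the largest difference of these at -1.28 (adjusted p = 6.7e-07), followed by BID, which links death receptors to mitochondria (-0.62), and BCL2L1, which encodes BCL-XL (-0.51). BAX and BCL2L12 were the others called. In DTE against DMSO 9 of the 16 fell and 0 rose, where 22.5% of all genes were called lower and 9.64% higher. The median of the 16 was -0.38, against -0.11 over all genes. Among the 9 were the effector genes BAX (-0.60) and BAK1 (-0.43) and the survival genes BCL2 (-0.57) and BCL2L1 (-0.46). After quantile normalization 1 rose and 1 fell in DT, where 1247 of 14580 genes were called higher and 1146 lower. In DTE 0 rose and 2 fell, where 2065 genes were called higher and 2064 lower. Most of the calls as deposited thus depended on the scale. In E against DMSO 0 of the 16 were called by limma, beside 16.1% of all genes. Over all 21 family genes 2 had an unadjusted p under 0.05 there, both of them members.

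The survival gene BCL2 was low in both groups with dabrafenib and trametinib. It stood at 5.82 ± 0.12 in DTE, 5.12 ± 0.13 in DT, 6.64 ± 0.11 in E and 6.40 ± 0.18 in DMSO (SD, n = 3 each). BCL2 was 1.63-fold higher in DTE than in DT (0.71, SE 0.13, adjusted p = 0.000537). That was the 1 call among the 16 in this comparison as deposited, beside 18.9% of all genes. The departure of BCL2 from additivity was 0.46 and was not called (adjusted p = 0.295). BBC3, which encodes the p53-inducible protein PUMA, was lower in DTE than in DMSO (-0.45) and stood at -0.17 in DT against DMSO without being called. The BBC3 call in DTE was lost after quantile normalization (-0.42, adjusted p = 0.0822 by limma). No effector gene was called in DTE against DT as deposited (0 of 3 by limma, and 1, BAK1, at an unadjusted p under 0.05), and BAX was called lower there after quantile normalization (-0.36, adjusted p = 0.0292).

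**Figure D4:**
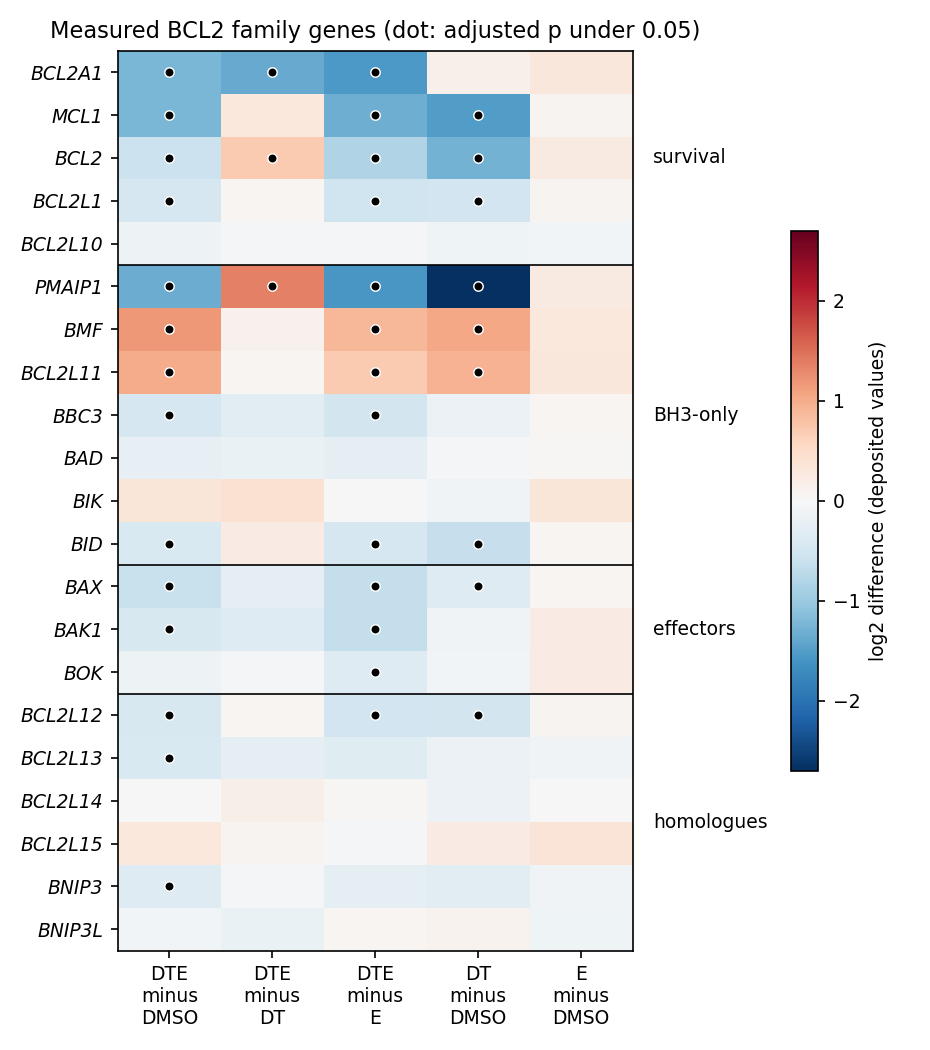
Log2 differences (colour, deposited values) of the 21 measured BCL2 family genes in 5 comparisons, grouped into survival genes, BH3-only genes, effectors and further homologues; dots mark an adjusted p under 0.05. BMF and BCL2L11 are the only red dotted cells in the DTE against DMSO, DTE against E and DT against DMSO columns, and the E against DMSO column has no dot.

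Of 16 listed transcription factors known to act on members, 15 were measured. In DTE against DMSO 5 were higher and 8 lower (median -0.36, against -0.11 over all genes), where 9.64% of all genes were higher and 22.5% lower. In DT against DMSO 2 were higher and 6 lower (median -0.14, against -0.17 over all genes), where the shares were 3.23% and 24.1%. In E against DMSO 4 were higher and 2 lower, where 16.1% of all genes were called in either direction, 1825 of 14580 higher and 516 lower. After quantile normalization 6 were higher and 6 lower in DTE, 3 and 2 in DT, and 2 and 2 in E. The lean towards lower values in DTE and DT thus rested on the scale between arrays. Of all 14580 genes, 2065 were then higher and 2064 lower in DTE, 1247 and 1146 in DT, and 1410 and 1232 in E. MYC, which is known to act on several BCL2 family genes, had the largest difference of the list in DT and in DTE against DMSO. It stood at 5.43 ± 0.07 in DTE, 4.99 ± 0.10 in DT, 6.78 ± 0.12 in E and 6.66 ± 0.05 in DMSO (SD, n = 3 each). MYC was lower in DTE than in DMSO (-1.23, adjusted p = 2.54e-07) and in DT than in DMSO (-1.67, adjusted p = 4.51e-09), and after quantile normalization these were -1.03 and -1.35, both called. It was higher in DTE than in DT (0.44, adjusted p = 0.00912). FOXO3, which is known to act on BCL2L11 and PMAIP1, was higher in DT than in DMSO (0.85, adjusted p = 0.000845) and in DTE than in DMSO (0.62, adjusted p = 0.00692), with 1.06 and 0.69 after quantile normalization, both called. FOXO1 was lower in DT than in DMSO (-0.47, adjusted p = 0.0198), a call lost after quantile normalization (-0.14). ATF3, a stress factor of the ATF and CREB class, was higher in DTE than in DT (1.12, adjusted p = 8.88e-05), and so were JUN (0.97) and FOXO1 (0.92). For DTE against DT, the comparison in which PMAIP1 rose, these were the 3 largest differences in the list. After quantile normalization they were 1.00 for ATF3, 0.86 for JUN and 0.83 for FOXO1, all called. Whether any of these 3 factors takes part in the rise of PMAIP1 was not tested. Of the 15, 4 were higher and 4 lower in DTE against DT, where 13.8% of all genes were higher and 5.09% lower. The lower ones included MITF (-0.71), DDIT3 (-0.59, adjusted p = 0.0112) and E2F1 (-0.55, adjusted p = 0.0107). After quantile normalization these were -0.81, -0.76 and -0.68, all called. ATF4, a stress factor of the same class as ATF3, was not called in DTE against DT (0.09) and was lower in DTE than in DMSO (-0.42, adjusted p = 0.00779) and in DT than in DMSO (-0.51, adjusted p = 0.00254). Both ATF4 calls were lost after quantile normalization (-0.15 and -0.16). The departure from additivity was called for 0 of the 15 by limma, beside 1.04% of all genes, and 5 had an unadjusted p under 0.05. In DT against DMSO, DTE against DMSO and DTE against E, 24.1%, 22.5% and 22.4% of all genes were called lower. All 9 measured ERK output genes fell in these comparisons, with medians of -3.66, -3.49 and -3.46. The largest falls in DT against DMSO were those of the phosphatase gene DUSP6 (-4.47), the feedback inhibitor gene SPRY2 (-4.24) and the transcription factor gene ETV4 (-4.05).

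Genes with the pattern most like each member were sought among 7285 genes at or above the median level, by Pearson r of log2 values over the 12 arrays. These values describe arrays that share 4 treatments, and carry no p. For BCL2A1 they were MIR146A, the locus of a microRNA (r = 0.95), ANKRD54 (0.93) and TRIB1, which encodes a pseudokinase (0.93). For MCL1 they were SHISA2, ETV1 and MAP2K1 (all r = 0.99), with MAP2K1, the gene of the trametinib target MEK1, at means of 7.10 in DTE, 6.94 in DT, 7.99 in E and 7.90 in DMSO. For PMAIP1 they were TNC, ADAM19 and OSMR (r = 0.99 for each). TNC, a matrix protein gene, stood at 9.21 in DTE, 8.40 in DT, 10.40 in E and 10.20 in DMSO. For BMF they were BEST1 (0.98), SOX4 (0.97) and RNF150 (0.95), and for BCL2L11 DAAM1 (0.99), MEGF9 (0.97) and TRIM2 (0.97). MIR146A, the nearest to BCL2A1, stood at 5.51 in DTE, 6.18 in DT, 6.25 in E and 6.19 in DMSO, a smaller drop in the same group.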

How the data were processed

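Expression was measured on Affymetrix arrays in 12 samples, 3 per group, with groups taken from the sample titles. The deposited intensity values, 1 for each probe set on an array, are linear and run from 1.88 to 8728; the submitters' processing notes name RMA and the Transcriptome Analysis Console without versions, and no genome build was stated for the probes. Of 29396 probe sets, 14748 had 1 gene symbol, 0 several and 14648 none; symbols were updated by NCBI gene identifier (14748 matched). The probe set with the highest mean was used for the 156 genes with several, giving 14580 genes. No background measure per probe set was used, and the number of arrays limits the precision.

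Log2 intensities were fitted with limma 3.58.1 in R 4.3.3 (4 group means, 12 arrays, 8 residual degrees of freedom, eBayes), tested on simulated data. Alternatives were quantile normalization, median centring, leaving out genes below the lower quartile, an offset of 16, the mean of all probe sets, the replicate block, fits of only the groups compared, and leaving out each array. The members, gene lists and motifs were chosen with earlier results of these data known. Named genes were the 5 members, genes from among the 3 largest called differences of a list in a comparison (not every such gene in every comparison), the 3 genes most alike per member, and genes needed beside a member, a marker or a list count. Promoter sequences were available for 4 of the 5 members, from RefSeq on GRCh38.p14.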

Additional observations from a re-analysis of the deposited data

Results flagged for a closer look

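The entinostat difference depended on whether dabrafenib and trametinib were present for 2 of the 5 members, by the interaction term of the limma fit (adjusted p = 0.000489 for BCL2A1 and 0.00183 for PMAIP1). For BCL2A1, entinostat on the MAPK inhibitors minus entinostat on DMSO was -1.67 on the log2 scale, with all 3 DTE arrays below the 9 others. For PMAIP1 it was 1.11, with all 3 DTE arrays above all 3 DT arrays. Among the genes of the lists and markers, the same term was called for TYRP1, an enzyme of melanin synthesis (-1.24, adjusted p = 0.00309). It was also called for PMEL, a melanosome matrix protein (-0.74, adjusted p = 0.0345). SPRY2, a feedback inhibitor of ERK signalling, had a term of 0.87 (adjusted p = 0.0108).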

How the results depend on the processing

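Each member was recomputed under 19 other settings (18 for the departure from additivity), which gave 565 values: 556 kept their direction and their side of the threshold, 7 changed sign and 2 became called. No member lost a call. The 7 sign changes were all in differences that were not called under any of these settings: MCL1 in E against DMSO was -0.12 after median centring and ranged over -0.01 (without DMSO replicate 3) to 0.19 when arrays were left out. BMF in DTE against DT was -0.05 after median centring. BCL2L11 in DTE against DT was -0.05 after quantile normalization, -0.11 after median centring, and -0.03 (without DT replicate 3 or DTE replicate 3) to 0.18 when arrays were left out. The 2 gains were BCL2A1 in DT after quantile normalization (0.50) and PMAIP1 in E with the offset of 16 (0.21). That offset moved the calls in E against DMSO to 1 for the members and 1 for the family. Family calls in DTE against DMSO were 14 as deposited, 7 after quantile normalization and 9 to 14 when arrays were left out (9 without DMSO replicate 1 and without DTE replicate 2). In DTE against DT they were 3, or 5 after quantile normalization and 7 after median centring, and in DTE against E 13, or 7 under each of those. Family genes other than the members are thus sensitive to the scale between arrays, whereas the 5 members kept their calls under it. Deviations of same-numbered arrays were weakly and mostly positively correlated, with r above 0.1 in 3 of 18 pairs (range -0.10 to 0.17). Whether the numbers pair the arrays was not settled by this check. With the replicate block, 4 members were called in DT, 0 in E and 5 in DTE against DMSO. The block also gave 2 calls for DTE set against DT, 5 for DTE set against E and 2 for the departure. All of these counts were the same without the block.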

Other observations

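Beyond the BCL2 family, some inhibitors of apoptosis, the mitochondrial protein genes HTRA2 and ENDOG, and the death receptor adaptor FADD were called lower in DTE than in DMSO. Of 6 measured inhibitors of apoptosis (including CFLAR, which blocks caspase-8), 2 fell in DTE, 3 in DT and 0 in E against DMSO by limma (3, 1 and 4 after quantile normalization; 3 in E had an unadjusted p under 0.05). Of all genes, 22.5% were called lower in DTE and 24.1% in DT, and 516 of 14580 in E. After quantile normalization 2064 of the 14580 were called lower in DTE, 1146 in DT and 1232 in E. In DT the genes called lower were BIRC2, BIRC6 (-0.45) and XIAP (-0.42), and after quantile normalization BIRC2 alone. BIRC2, which encodes the ubiquitin ligase cIAP1, was 1.58-fold lower in DTE than in DMSO (-0.66, adjusted p = 0.000695) and 2.12-fold lower in DT than in DMSO (-1.09, adjusted p = 5.75e-06). It was higher in DTE than in DT (0.43, adjusted p = 0.0245). After quantile normalization these 3 differences were -0.40, -0.71 and 0.31, all called. The departure of BIRC2 from additivity was 0.70 and was not called as deposited (adjusted p = 0.0751). It was called after quantile normalization (0.64, adjusted p = 0.0306) and after median centring (0.72, adjusted p = 0.0296). BIRC5, which encodes survivin, a protein of mitosis as well as of apoptosis control, was lower in DTE than in DMSO (-0.56, adjusted p = 0.000711) and stood at -0.26 in DT without being called.

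Of 13 listed genes of caspases and the apoptosome, 3 were measured, APAF1, HTRA2 and ENDOG, none of them a caspase. Of these, 2 fell in DTE and 1 in DT against DMSO, where 22.5% and 24.1% of all genes were called lower. APAF1, the measured apoptosome gene, was not called in DTE against DMSO (0.09, adjusted p = 0.707). After quantile normalization APAF1 was called higher there (0.30, adjusted p = 0.0338). HTRA2, a mitochondrial protease, was lower in DTE (-0.40, adjusted p = 0.0154) and in DT (-0.36, adjusted p = 0.0303). Both HTRA2 calls were lost after quantile normalization (-0.11 and 0.02). ENDOG and FADD were called lower in DTE than in each of the other 3 groups. ENDOG, a mitochondrial nuclease, differed by -0.70 from DMSO, -0.72 from DT and -0.57 from E (adjusted p = 0.000733, 0.000852 and 0.00625). FADD, the adaptor of death receptors, differed by -0.54, -0.42 and -0.62 (adjusted p = 0.00314, 0.0258 and 0.00225). Neither departure from additivity was called (-0.60 for ENDOG, adjusted p = 0.178, and -0.50 for FADD, adjusted p = 0.248). After quantile normalization ENDOG kept its calls against DMSO (-0.49) and DT (-0.86) but not E (-0.27), and FADD kept its call against DT (-0.55) but not against DMSO (-0.30) or E (-0.31). In DTE against DT 0 of 3 measured regulators of MCL-1 and NOXA turnover were called by limma (0 at an unadjusted p under 0.05), beside 18.9% of all genes. Of these 3, 1, USP13, was called lower in DTE (-0.38) and in DT (-0.52) against DMSO, beside 22.5% and 24.1% of all genes. Its calls were lost after quantile normalization (-0.12 and -0.14).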
